A study of Gallus gallus with 3 samples.

Results

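UCP3, the mitochondrial carriers of the SLC25A family and the TIMM and TOMM genes of mitochondrial protein import were described in chicken (Gallus gallus) breast muscle. The birds were male Arbor Acres broilers, a commercial line bred for meat, 42 days old and kept at 50 ± 3 ppm of atmospheric ammonia. The 3 libraries used here all belong to that 1 group and are named library 1, 2 and 3 after their titles, so nothing here compares ammonia with another exposure. Whether the libraries came from separate birds is not stated. Each SD is therefore the spread among 3 libraries, some or all of which may be technical.

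Members were the genes whose symbol begins with SLC25A, TIMM or TOMM in the NCBI chicken gene table, plus UCP3. Of 56 such genes 37 were matched to a row of the deposited tables, among 10663 named genes in all. They comprised UCP3, 26 SLC25A genes, 5 TIMM genes and 5 TOMM genes. The other 19, among them SLC25A12, SLC25A24, TIMM44, TIMM10 and TOMM22, were not analysed here, so class sums are lower bounds. They were 10 SLC25A, 6 TIMM and 3 TOMM genes, so shares and ratios of class sums hold for the matched genes only. Values are taken to be FPKM (fragments per kilobase of transcript, divided by library size), a unit inferred from the tables. All 37 members had values above 0 in every library. The filter of at least 1 FPKM in at least 2 libraries was passed by 36 members, the exception being SLC25A37, and shares of all genes below are over the 6595 named genes that passed it.

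The inner mitochondrial membrane is closed to most metabolites, and proteins of the SLC25A family carry ADP and ATP, phosphate, organic acids, amino acids and cofactors across it. Uncoupling proteins belong to the same family by structure. UCP3 is found mainly in skeletal muscle of mammals, where its transcript is known to go up with fasting and fatty acid supply, and the chicken gene, also called avian UCP, is likewise a muscle gene. Nearly all mitochondrial proteins, the carriers included, are made in the cytosol. They enter through the TOM complex of the outer membrane and are then sorted by TIM complexes, with TIM23 for proteins that bear a presequence and TIM22 for the carriers.

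Library totals were 569361, 586193 and 573648 FPKM, and the number of reads behind them is not known, so counting error is not given. The tissue label was checked against fast muscle genes. MYL1, TNNT3 and TNNC2, the highest matched genes of the muscle list, averaged 15976, 15641 and 14413 FPKM. MB (myoglobin, abundant in red muscle) averaged 5.83 FPKM. Not every other gene of the list was high: PVALB had 2.37, 1.46 and 1.28 FPKM in libraries 1 to 3. Of the 10 genes listed for muscle 7 were matched. Their sum was 49465 FPKM in library 1, 63122 FPKM in library 2 and 64001 FPKM in library 3. Library 1 was lowest for 5 of the 7, against 25.8% of all genes, and for 6 of 7 after scaling, against 37.7%. Library 1 is also where UCP3 was highest and SLC25A4 lowest, as given below, and the part of this difference in those values was not tested. Library 1 ran slightly high: the median gene that passed the filter deviated there by 0.15 log2 from the mean of the other 2 libraries, against -0.04 in library 2 and -0.09 in library 3. Values after median-of-ratios scaling, which removes most of this shift, are given beside most counts by library and the spreads of some members that it moves.

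UCP3 was among the highest of the 37 members, and its level differed widely between libraries. Its level was 481 FPKM in library 1, 146 FPKM in library 2 and 110.2 FPKM in library 3. Library 1 stood alone, at 3.29 times library 2 and 4.36 times library 3, while libraries 2 and 3 were 1.33-fold apart. Among the members UCP3 ranked 2nd in library 1, 6th in library 2 and 7th in library 3. Among all named genes it ranked 127th, 328th and 435th.

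The spread of UCP3 was uncommon in these libraries. Between the highest and lowest library it was 4.33-fold on the FPKM + 1 scale, and 111 of 6595 genes that passed the filter (1.68%) were at least that far apart. After median-of-ratios scaling the spread was 3.76-fold, with library 1 still highest and library 3 lowest. UCP3 held 20.7% of the summed level of UCP3 and the SLC25A genes in library 1, 7.10% in library 2 and 4.10% in library 3. With 1 group and 3 libraries, no test of a single library is possible.

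**Figure D1:**
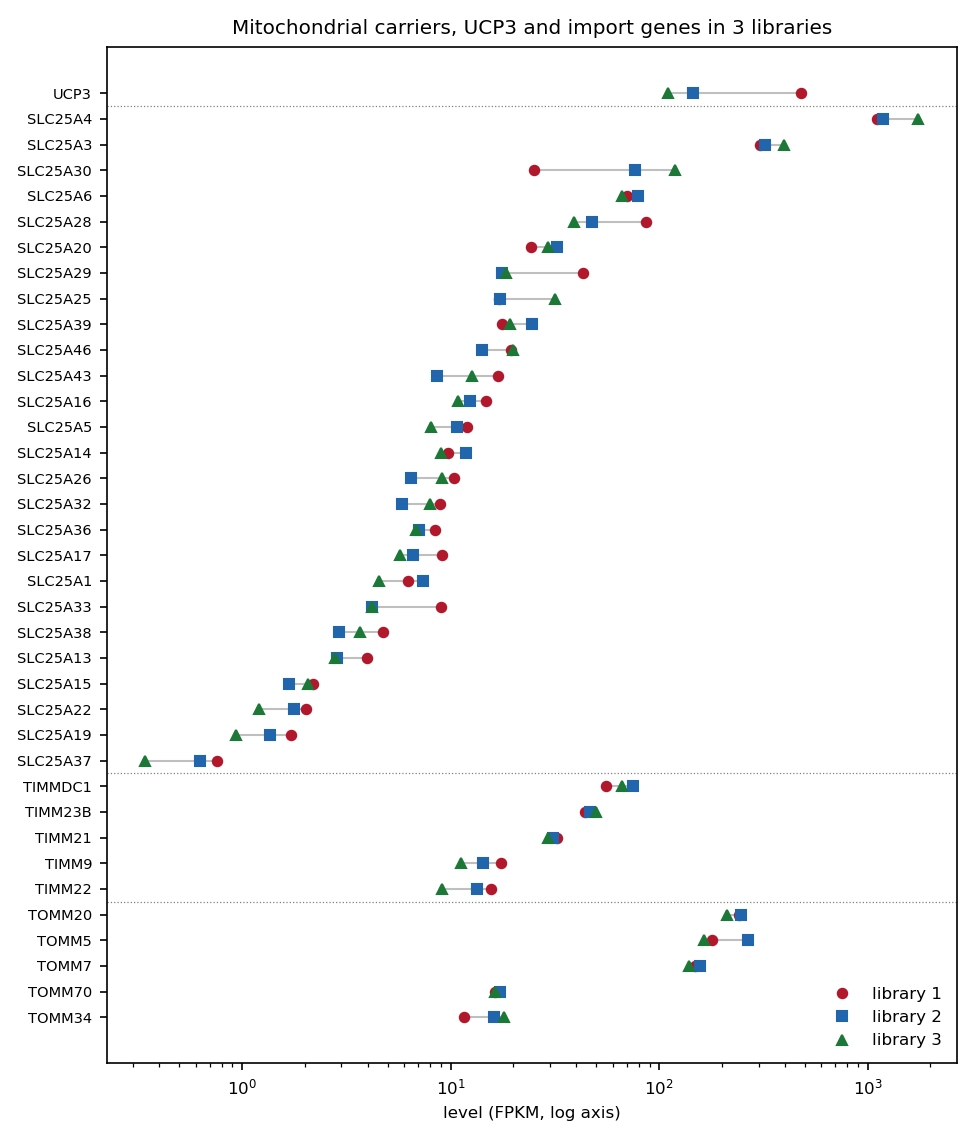
Level of each of the 37 members (FPKM, log axis) in library 1 (circles), library 2 (squares) and library 3 (triangles), by class and then by mean level, with a grey line over the range. Relative to their own points in the other libraries, UCP3 lies far to the right in library 1 and SLC25A30 far to the left. TIMM21, TIMM23B, TOMM7, TOMM20 and TOMM70 have 3 nearly coincident points.

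The carriers that serve ATP production dominated the family. SLC25A4, the muscle form of the carrier that exchanges ADP for ATP, had 1109.5 FPKM in library 1, 1185 FPKM in library 2 and 1749 FPKM in library 3. It was the highest member in every library and ranked 57th, 49th and 27th among all named genes. SLC25A3, which brings in the phosphate for ATP synthesis, had 304 FPKM in library 1, 324 FPKM in library 2 and 399 FPKM in library 3. Both were highest in library 3 and lowest in library 1, the opposite order to UCP3.

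Within libraries the log2 ratio of SLC25A4 to SLC25A3 averaged 1.96 ± 0.15 (SD, n = 3). SLC25A4 alone held 63.4 ± 3.91% of the summed SLC25A level. Relative to UCP3 and all SLC25A genes, it held 47.8% in library 1, 57.6% in library 2 and 65.0% in library 3. The 24 SLC25A genes other than SLC25A3 and SLC25A4 together held 18.0 ± 1.76%.

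The adenine nucleotide carriers were expressed in a fixed order. SLC25A6 had 70.5, 79.6 and 66.4 FPKM in libraries 1 to 3, and SLC25A5, a form that many dividing cells use, had 12.0, 10.8 and 8.05 FPKM. SLC25A4 made up 94.0 ± 1.69% of the sum of these 3 genes. The mean log2 ratio was 4.20 ± 0.45 for SLC25A4 to SLC25A6 and 2.83 ± 0.25 for SLC25A6 to SLC25A5, and no library broke the order. The 3 genes are close paralogues that can share reads, so their split is uncertain.

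**Figure D2:**
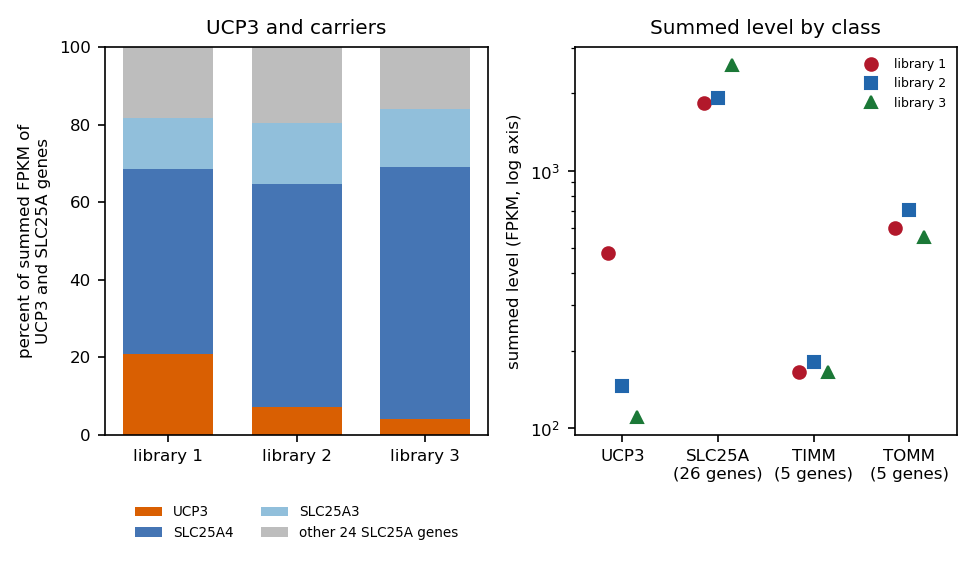
Left, share of UCP3, SLC25A4, SLC25A3 and the other 24 SLC25A genes in their summed FPKM (percent) in each library; right, summed level of each class (FPKM, log axis) in library 1 (circles), library 2 (squares) and library 3 (triangles). UCP3 takes 20.7% in library 1 against 7.10% and 4.10% in libraries 2 and 3, while the TIMM sum stays between 165 and 180.4 FPKM.

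SLC25A30 was the carrier that differed most between libraries. It belongs to the branch of the family closest to the uncoupling proteins and was first described in mammalian kidney. Its level was 25.1 FPKM in library 1, 76.6 FPKM in library 2 and 119 FPKM in library 3. Library 1 was the low one, at 0.328 times library 2 and 0.212 times library 3. Its spread was 4.58-fold on the FPKM + 1 scale, which 90 of 6595 genes (1.36%) reached, and scaling widened it to 5.26-fold.

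UCP3 and SLC25A30 thus took opposite orders over the same 3 libraries. The log2 ratio of UCP3 to SLC25A30 was 4.26 in library 1, 0.93 in library 2 and -0.11 in library 3, so SLC25A30 had the higher level in library 3. SLC25A14, another relative of the uncoupling proteins, did not show either pattern, with 9.69, 11.9 and 9.05 FPKM in libraries 1 to 3.

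In all, 4 of the 36 members that passed the filter were more than 2-fold apart between their highest and lowest library on the FPKM + 1 scale: UCP3, SLC25A30, SLC25A29 and SLC25A28. Over all genes that passed it the share was 14.0%, and the 3 of 25 SLC25A genes lie near that background. The member just inside the threshold was SLC25A28 at 2.19-fold, and the one just outside was SLC25A33 at 1.93-fold. After scaling SLC25A28 stood at 1.91-fold and SLC25A25 at 2.06-fold, beside 13.2% of all genes past the threshold, so the count of 3 SLC25A genes held with 1 gene exchanged. Without library 1 no SLC25A gene was more than 2-fold apart, and 259 of 6595 genes were.

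SLC25A29, which carries arginine and lysine, had 43.3 FPKM in library 1, 17.6 FPKM in library 2 and 18.4 FPKM in library 3. SLC25A28, mitoferrin-2, which brings iron into mitochondria, had 87.0, 47.7 and 39.1 FPKM. SLC25A33, a pyrimidine nucleotide carrier, had 9.03, 4.19 and 4.22 FPKM. In all 3 genes library 1 was the high one and libraries 2 and 3 lay closer to each other than to it, as they did for UCP3. All 3 were among the carriers named for wide spread. Of all genes 51.1% were highest in library 1, and 36.8% after scaling, where these 3 again were. SLC25A25, a calcium-regulated carrier of ATP-Mg and phosphate, was set apart by library 3, with 17.1, 17.3 and 31.5 FPKM in libraries 1 to 3.

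The amino acid carriers that were matched and the fatty acid carrier were expressed at low to moderate levels. SLC25A20, which exchanges acylcarnitine for carnitine and so feeds fatty acid oxidation, had 24.3, 32.4 and 29.4 FPKM in libraries 1 to 3. SLC25A13, a form of the aspartate-glutamate carrier of the malate-aspartate shuttle, averaged 3.20 ± 0.674 FPKM (SD, n = 3). The glutamate carrier SLC25A22 averaged 1.67 ± 0.420 FPKM. SLC25A15, the ornithine carrier that serves the urea cycle of mammals, averaged 1.98 ± 0.264 FPKM. Of the pairs named for comparison, SLC25A12, TIMM17B and TOMM40L were among the genes not analysed here. SLC25A12 is the paralogue paired with SLC25A13, so the summed level of aspartate-glutamate carriers is not known.

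SLC25A13, SLC25A15, SLC25A22, SLC25A26, SLC25A29 and SLC25A38 were listed as amino acid carriers and passed the filter, although SLC25A26 carries the cofactor S-adenosylmethionine. All 6 were highest in library 1, against 51.1% of all genes. After scaling 4 of the 6 were, against 36.8%, while SLC25A15 and SLC25A26 were highest in library 3. Of the 25 SLC25A genes 15 were highest in library 1, and 12 after scaling. Their median deviation in library 1 was 0.29 log2, against 0.15 over all genes, and 0.16 against 0.01 after scaling.

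Most of the family lay far below SLC25A4. Of 26 SLC25A genes 5 averaged at least 50 FPKM and 12 averaged under 10 FPKM, and the median carrier that passed the filter averaged 10.3 FPKM, against 9.06 FPKM for all genes that did. SLC25A39, a glutathione carrier, averaged 20.6 FPKM, and SLC25A46, an outer membrane member involved in mitochondrial shape, 17.9 FPKM. SLC25A17, whose protein sits in peroxisomes, averaged 7.14 FPKM. SLC25A37, mitoferrin-1, the form of red cell precursors, was the lowest member, with 0.758, 0.630 and 0.344 FPKM in libraries 1 to 3. The red blood cell list had 6 of 10 genes matched and 2 above the filter. HBBA had 24.3, 54.1 and 98.7 FPKM in libraries 1 to 3. The summed list ranged from 70.1 to 409 FPKM, most of it CA2, and HBZ was listed at 0.

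The import genes showed no wide difference between libraries. None of the 10 TIMM and TOMM genes was more than 2-fold apart between libraries, beside the 14.0% of all genes. A count over 10 genes is too small to set the class apart from that share. The largest spread before scaling was 1.65-fold for TIMM22. After scaling none was either, and TOMM34 was the widest at 1.73-fold, with TIMM22 at 1.44-fold. Their median SD was 0.17 log2, against 0.27 for SLC25A genes and 0.26 over all genes, a difference that was not tested. TIMM22, TOMM5, TOMM34 and TIMM9 had SDs of 0.30 to 0.37 log2, above the SLC25A median. Library 2 was lowest for 0 of the 10, against 34.8% of all genes, and after scaling again for 0, against 33.9%. Library 1 was lowest for 4 of the 10, against 25.8%, and after scaling for 8, against 37.7%, all 5 TOMM genes among them.

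Of the 4 TOM complex genes measured, TOMM20, TOMM5 and TOMM7 had the highest levels. TOMM22, TOMM6 and TOMM40 were not among the 4, so the order within the whole complex is not known. TOMM20, a receptor for presequences, had 241, 247 and 213 FPKM in libraries 1 to 3. TOMM5, a small subunit of the pore, had 179, 266 and 164 FPKM, with library 2 high. TOMM7, another small subunit, had 149, 157 and 138 FPKM. These 3 genes held 74.2 ± 1.92% of the summed import level. All 4 TOM complex genes measured were highest in library 2, where 26.3% of all genes were, and also after scaling, where 29.5% were. TOMM34 is a cytosolic protein in mammals despite its name, and had 11.6, 16.2 and 18.1 FPKM.

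Carrier proteins have a receptor, chaperones and a channel of their own, of which 3 genes were measured. TOMM70, the outer membrane receptor for carrier precursors, had 16.4, 17.3 and 16.4 FPKM in libraries 1 to 3, and 98.4% of all genes were at least as far apart. Its spread of 1.05-fold was 1.15-fold after scaling. TIMM9, a chaperone of the space between the membranes, had 17.4, 14.3 and 11.2 FPKM. TIMM22, the channel that inserts carriers into the inner membrane, had 15.6, 13.3 and 9.11 FPKM. Both were highest in library 1 and lowest in library 3, the opposite order to SLC25A4 and SLC25A3.

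In the presequence route, TIMM23B had 44.3, 46.8 and 49.7 FPKM in libraries 1 to 3. TIMM23 forms the presequence channel in other species, and TIMM23B is the name the gene table gives. TIMM21, of the same complex, had 32.4, 31.1 and 29.2 FPKM. In every library both genes of the TIM23 complex lay above TIMM22, TIMM9 and TOMM70. TIMMDC1 is an assembly factor of respiratory complex I in mammals and no part of a translocase, and it was the highest TIMM-named gene at 55.3, 74.9 and 66.1 FPKM.

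The classes were then compared within each library. Summed SLC25A levels were 1839, 1910.3 and 2581 FPKM in libraries 1 to 3, against import sums of 761, 884 and 715 FPKM. The mean log2 ratio of carriers to import was 1.41 ± 0.39 (SD, n = 3). It rested on SLC25A4: without that gene the ratio was -0.04. The sums cover 26 and 10 genes, and by the median gene the order turned round, at 10.3 FPKM for carriers and 38.9 FPKM for import.

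UCP3, a single gene, lay below the import sum in every library. The log2 ratio was -0.66 in library 1, -2.60 in library 2 and -2.70 in library 3. To the summed carriers it was -1.94, -3.71 and -4.55, with a mean of -3.40 ± 1.33 (SD, n = 3). Summed TIMM levels were 165, 180.4 and 165 FPKM, against TOMM sums of 596, 704 and 549.9 FPKM. That log2 ratio was -1.85 ± 0.12 (SD, n = 3), and -2.51 without TIMMDC1 and TOMM34. With 6 TIMM and 3 TOMM genes not matched, the ratio of the whole classes is not known. Flipping the signs of the library ratios (an exact permutation test, two-sided) gave p = 0.25 for each of the 4 class ratios, the smallest p that 3 libraries allow, so none could pass 0.05.

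**Figure D3:**
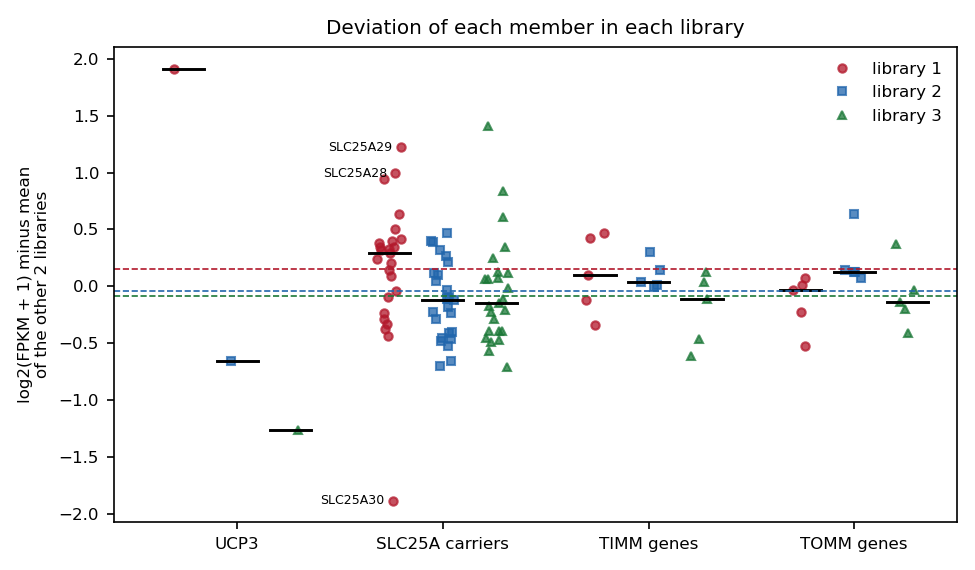
Deviation of each member that passed the filter, as log2(FPKM + 1) minus the mean of the other 2 libraries, in library 1 (circles), library 2 (squares) and library 3 (triangles); black bars are class medians and dashed lines the medians of all genes in library 1 (red), 2 (blue) and 3 (green). UCP3 at 1.91 and SLC25A30 at -1.88 in library 1 lie at the ends, while TIMM and TOMM genes stay between -0.61 and 0.63.

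Genes of fatty acid use were set beside UCP3 as a list chosen with earlier results of these data known. It includes the member SLC25A20, shares LPL with the fat cell list, and shares CPT1A and CPT2 with the list of other mitochondrial transport genes. PDK4, which holds back pyruvate oxidation and, in mammals, goes up with fasting, had 48.2 FPKM in library 1, 12.5 FPKM in library 2 and 10.2 FPKM in library 3. Its library 1 was 3.85 times library 2 and 4.75 times library 3, close to the folds of UCP3. PDK4 was named as the gene of widest spread in the list among those averaging at least 5 FPKM. Whether it shares a cause with UCP3 was not tested. FABP3, the muscle fatty acid binding protein, had 267, 712 and 777 FPKM, the opposite order. Of 17 matched genes of 24 listed, 15 passed the filter and PDK4 and FABP3 were the 2 more than 2-fold apart, against 14.0% of all genes. Library 1 was highest for 9 of the 15, against 51.1% of all genes, and for 7 after scaling, against 36.8%. Enzymes of beta oxidation were closer between libraries: HADH had 197, 233 and 249 FPKM and ACADL 105, 96.1 and 87.6 FPKM.

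Markers of fat cells were also highest in library 1 and lowest in library 3 in sum. FABP4, a lipid chaperone, had 113, 71.3 and 15.5 FPKM in libraries 1 to 3, and PLIN1, the coat protein of lipid droplets, chosen after its values were seen, had 15.2, 7.13 and 2.38 FPKM. The summed list was 283, 174 and 105 FPKM, with 9 of 9 genes matched, of which 8 passed the filter. Library 1 was highest for 6 of these 8, against 51.1% of all genes, and library 3 was lowest for 7, against 39.4%. After scaling the counts were again 6, against 36.8%, and 7, against 1877 of 6593 genes. ADIPOQ, a hormone made by fat cells, did not follow, at 38.4, 36.1 and 46.9 FPKM. UCP3 differed from FABP4 in library 2, where it lay near library 3. G0S2, at 93.6, 42.7 and 27.4 FPKM in libraries 1 to 3, had library 2 nearer to library 3, as UCP3 did. So did LPL, at 16.1, 11.9 and 10.7 FPKM, while CIDEC and PPARG had library 2 nearer to library 1, as FABP4 did. In bulk tissue, more cells of a type and more RNA per cell cannot be told apart, and the part of fat cells in the UCP3 values was not tested.

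**Figure D4:**
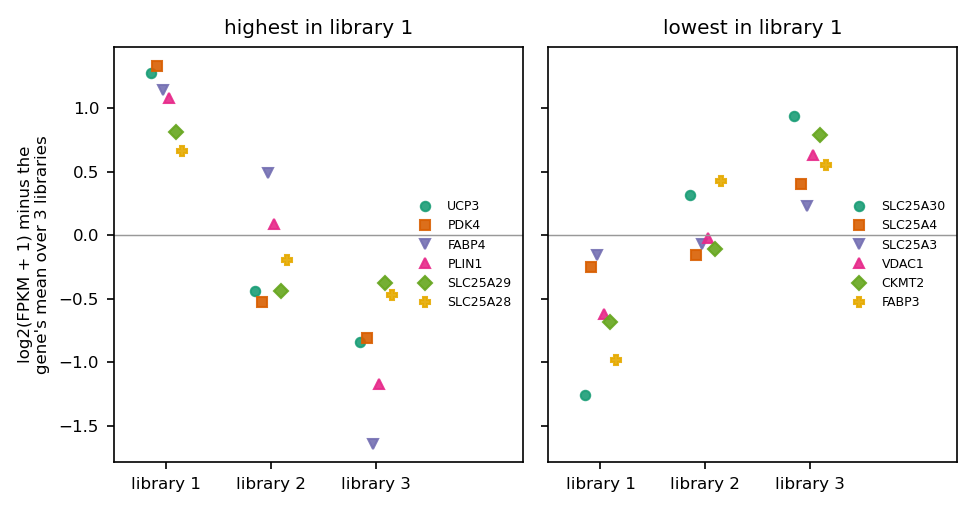
Members and other genes, chosen for this plot after their values were seen, as log2(FPKM + 1) minus each gene's own mean over the 3 libraries; left, 6 genes highest in library 1, right, 6 genes lowest in library 1. UCP3 and PDK4 nearly coincide in each library, and SLC25A30 spans the widest range on the right.

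Partners of SLC25A4 in the export of ATP had the same order of libraries in part. VDAC1, a pore of the outer membrane through which ATP leaves, had 157, 238 and 376 FPKM in libraries 1 to 3, while VDAC2 was even at 586, 507 and 548 FPKM. CKMT2, the mitochondrial creatine kinase that works between the adenine nucleotide carrier and the pore, was chosen after its values were seen and had 583, 868 and 1616 FPKM. VDAC1 and CKMT2 were lowest in library 1 and highest in library 3, as SLC25A4 was. The order was not particular to ATP export, since TNNT3, FABP3 and HADH had it too. MPC2, of the pyruvate carrier, had 137, 185 and 171 FPKM. Of 17 matched genes of 23 listed, 15 passed the filter and 2 were more than 2-fold apart, VDAC1 and SMDT1, a small subunit of the calcium uniporter. This share is near the 14.0% of all genes, and after scaling the count was 3 of 15, beside 13.2%. SMDT1 had 30.7, 65.9 and 59.1 FPKM. Library 1 was lowest for 4 of the 15, against 25.8% of all genes, and for 5 after scaling, against 37.7%.

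Partners of the import machinery were mostly lowest in library 1. Of 23 listed genes 19 were matched, and 13 were lowest in library 1, against 25.8% of all genes, and 16 after scaling, against 37.7%. In library 2, 12 of the 19 were highest, against 26.3%, and also 12 after scaling, against 29.5%. HSPA9, the motor that pulls proteins into the matrix, had 75.6, 89.3 and 93.0 FPKM in libraries 1 to 3. HSPE1, a co-chaperonin of the matrix, had 55.5, 94.2 and 83.7 FPKM, and MTX2, of outer membrane assembly, 69.2, 87.6 and 91.6 FPKM. Of the 19, IMMP2L, an inner membrane peptidase, and ROMO1 were more than 2-fold apart, against 14.0% of all genes, at 2.74, 8.39 and 5.99 FPKM and at 1.61, 4.69 and 1.66 FPKM.

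Markers of other cells also differed between libraries. The summed macrophage list was 359, 306 and 150.3 FPKM in libraries 1 to 3, with 5 of 8 genes matched and CD74 at 325, 270 and 136 FPKM. Most of that sum was CD74. CTSS, at 21.3, 26.9 and 9.16 FPKM, and TLR4 were highest in library 2. The other 3 were highest in library 1, against 51.1% of all genes, and again after scaling, against 36.8%. All 5 were lowest in library 3, against 39.4% of all genes, and again after scaling, against 1877 of 6593 genes. The summed fibroblast list was 400.0, 875 and 651 FPKM, with 6 of 7 matched and COL3A1 at 168, 409 and 307 FPKM. Of the 6 fibroblast genes 5 were highest in library 2, against 26.3% of all genes, and 5 after scaling, against 29.5%. Library 1 was lowest for 4 of the 6, against 25.8%, and for 4 after scaling, against 37.7%. PDGFRA went the other way, highest in library 1 and lowest in library 2, and THY1 was lowest in library 3. The summed endothelial list was 86.2, 50.3 and 56.3 FPKM, with 5 of 6 matched, and PLVAP had 57.0, 30.1 and 30.8 FPKM. Most of that sum was PLVAP. Of the 5 endothelial genes 3 were highest in library 1, near the 51.1% of all genes, and 3 after scaling, against 36.8%. Library 2 was lowest for 4 of the 5, against 34.8%, and for 4 after scaling, against 33.9%. CDH5 had 14.0, 11.3 and 15.4 FPKM. More than 2-fold apart were 4 of 5 macrophage, 4 of 6 fibroblast and 1 of 5 endothelial genes, against 14.0% of all genes. After scaling the counts were 2, 4 and 0, against 13.2%. The part of these cells in the values of the members was not tested.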

How the data were processed

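The authors deposited 1 table per library with 36977 RefSeq transcripts and 1 value each, treated as FPKM, since no unit is named. CASAVA 1.7, Bowtie2 and HTSeq appear in the submitters' processing notes without a stated role, and the genome build is not given in the sources used here. Accessions were matched without their version to NCBI RefSeq gene names of GRCg7b (13188 transcripts, 10663 genes), and rows were summed per gene (42 rows for 37 members). A gene was kept when 2 or more libraries reached 1 FPKM (6595 genes) and taken as log2(FPKM + 1), which understates differences of low genes. Spread is the highest over the lowest library, with a threshold of 2-fold. Class sums were compared within libraries by an exact sign-flip permutation test (Python 3.11.15, pandas 2.3.3). Members, lists and tests were chosen with earlier results of these data known. Named members were UCP3, the 8 SLC25A, 4 TIMM and 4 TOMM genes of highest mean, the 4 carriers and 2 import genes of widest spread (mean 5 FPKM or more), and fixed paralogue pairs; others are described with their class. No sequence is printed.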

Additional observations from a re-analysis of the deposited data

How the results depend on the processing

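Taking the mean of log2(FPKM + 1) over members, which by construction weighs every gene alike, turned 3 class ratios round: carriers to import lay at -1.64, UCP3 to carriers at 3.76 and UCP3 to import at 2.12. Without SLC25A4, an alternative chosen after seeing the data, the log2 ratio of carriers to import lay at -0.043. Leaving out 1 library gave 1.19 to 1.56 for carriers to import, -4.13 to -2.82 for UCP3 to carriers, -2.65 to -1.63 for UCP3 to import and -1.91 to -1.79 for TIMM to TOMM. With curated transcripts only, which leave 11 SLC25A genes and none of SLC25A28, SLC25A29 and SLC25A30, 0 carriers were more than 2-fold apart, against 516 of 3774 genes. The ratios then lay at -0.20 for UCP3 to import, 2.98 for carriers to import and -0.90 for TIMM to TOMM. Only 3 import genes were left, so TIMM to TOMM set TIMM9 and TIMMDC1 against TOMM7 alone. In library 1 UCP3 then lay above the import sum. Leaving out 1 library gave 0 to 3 such carriers: 0 without library 1, 3 without library 2 and 2 without library 3, against 259, 586 and 538 of 6595 genes. Pseudocount 0.1 gave 4, against 1362 of 6595 genes. Median-of-ratios scaling moved the median deviation of import genes in library 1 to -0.18, where it was -0.01. The deviation of TOMM5 in library 1 was -0.57 to 0.12 when 1 other library was left out. Of 111 alternative values 103 were labelled unchanged, 3 moved and 5 reversed. A class ratio was labelled unchanged when its sign held, even where its size changed by more than the SD. Deviations labelled unchanged moved by less than the SD between libraries, and some class medians among them changed sign. With curated transcripts only, the SLC25A median in library 3 went from -0.146 to 0.075. Without library 2, the import median in library 1 went from -0.011 to 0.111. The deviation of TOMM5, by contrast, was labelled reversed for its change of sign. Counts of 2 or 4 carriers in place of 3 were also labelled unchanged. Dropping TIMMDC1 and TOMM34, also chosen after seeing the data, moved TIMM to TOMM to -2.51. No paired analysis was possible because there is 1 group. Read depth is unknown, so differences among members under about 1 FPKM, such as SLC25A37, cannot be judged.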
